A study of Mus musculus with 17 samples.

Results

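The 10 transcripts described here are Jun, Junb, Jund, Fos, Fosb, Atf3, Egr1, Ier2, Myc and Klf6, the AP-1 and immediate early genes. They were taken by gene symbol, and all 10 were found among the 19151 genes listed for mice on a high-fat diet (HFD) and among the 24233 genes listed for mice on a Western-type diet (WD), which is rich in fat and cholesterol. RNA-seq was performed on livers of WT mice and of liver-specific NgBR knockout mice (N-LKO), and on N-LKO tumors, from male mice in the C57BL6 background. N-LKO mice carry loxP-flanked NgBR alleles and albumin-Cre, which acts in hepatocytes. The study names endothelial, stellate and Kupffer cells as examples of liver cells that express NgBR. Whether cholangiocytes keep the gene was not given in the sources used here. The groups were HFD WT liver (n = 4), HFD N-LKO liver (n = 4), WD WT liver (n = 3), WD N-LKO liver (n = 3) and WD N-LKO tumor (n = 3), all after a standard diet and then 16 weeks of the HFD or WD, and groups on another diet were not analysed here. The loxP genotype of the WT mice was not given in the sources used here. The labels number the libraries as biological replicates, but they do not say whether tumors and N-LKO livers came from the same mice or whether tumors of 1 mouse were separate replicates. In bulk tissue, fewer cells of a type and less RNA per cell cannot be told apart.

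AP-1 is a family of dimers of basic leucine zipper proteins that bind DNA. JUN proteins pair with each other or with FOS and ATF proteins, whereas FOS proteins need a JUN partner. Many of these genes are immediate early genes, which are transcribed within minutes of a growth factor, injury or stress signal through MAP kinases and factors already present in the cell, and whose mRNAs are short-lived. In liver they are known from regeneration after tissue loss and from diet-induced injury, and c-JUN and MYC are known from hepatocarcinogenesis.

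Levels are given as CPM, counts scaled to library size so that a library sums to a fixed total. Promoter sequences are shown for Jun and Fos, the founding partners of AP-1, and for Klf6, the gene that passed the test under HFD. They are the 180 bases upstream of the RefSeq transcript start, 5′ to 3′ along the gene, in GRCm38.p6. They lie at chr4:95052223-95052402 on the minus strand for Jun, at chr12:85473710-85473889 on the plus strand for Fos and at chr13:5861309-5861488 on the plus strand for Klf6. Capitals mark TGACATCA in Jun and Klf6 and TGACG in Fos.
Jun: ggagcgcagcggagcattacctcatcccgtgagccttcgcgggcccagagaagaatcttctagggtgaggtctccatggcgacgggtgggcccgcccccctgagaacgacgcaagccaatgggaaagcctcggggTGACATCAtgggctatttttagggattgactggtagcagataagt
Fos: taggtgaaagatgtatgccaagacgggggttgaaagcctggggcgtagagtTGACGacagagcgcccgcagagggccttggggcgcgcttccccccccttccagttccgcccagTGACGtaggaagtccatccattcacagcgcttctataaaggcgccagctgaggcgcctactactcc
Klf6: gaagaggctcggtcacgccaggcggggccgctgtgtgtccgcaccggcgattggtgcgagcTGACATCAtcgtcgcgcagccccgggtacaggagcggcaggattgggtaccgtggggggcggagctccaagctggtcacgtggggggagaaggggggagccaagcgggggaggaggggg
TGACATCA lay 45 to 38 bases before the start in Jun and 119 to 112 bases before it in Klf6. TGACG lay 129 to 125 and 66 to 62 bases before the start in Fos.

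A RefSeq promoter was at hand for 7 of the 10 genes, the exceptions being Egr1, Ier2 and Myc, which were not analysed here. Of these 7, 4 held TGACG within 250 bases upstream on either strand, namely Junb, Fos, Fosb and Atf3, against 17.8% of all 32851 promoters. TGACG forms part of the longer cyclic AMP response element TGACGTCA, which 0 of 7 held, against 1.55% of all promoters. Within the same 250 bases, the AP-1 site TGACTCA was in 0 of 7 (4.46% of all). The CArG box, the letters bound by serum response factor, was in 0 of 7 (1.47% of all). Sites farther upstream were not searched. TGACATCA was in 2 of 7 (2.93% of all), and it was searched only after the sequences had been seen. The RefSeq start behind the Jund window lies 1210 bases upstream of the gene start used for the counts, and that behind the Atf3 window lies inside the counted gene. Without both windows, TGACG was in 3 of 5 and TGACATCA in 2 of 5, and the other words were in 0 of 5. The Jund sequence is not printed.

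The 10 genes are compact. By the GENCODE annotation of GRCm38, Jun (ENSMUSG00000052684.4, chr4:95049034-95052222), Jund (ENSMUSG00000071076.6, chr8:70698949-70700616) and Ier2 consist of 1 exon, and the union of exons runs from 1522 bases in Ier2 to 6243 bases in Fosb. Klf6 (ENSMUSG00000000078.7) lies at chr13:5861482-5870394 and its longest transcript has 4 exons. The longest transcript of Jund is 67.1% GC, above 99.8% of the listed genes, and that of Klf6 is 42.4% GC, above 17.6% of them. Jun overlaps the antisense gene Junos, Jund overlaps the antisense gene Gm11175 and Junb overlaps Prdx2. Without strand, reads from a gene and its antisense partner cannot be told apart, so values of these 3 genes carry that uncertainty. The counts of Jun were not whole numbers in 2 of 8 HFD and 8 of 9 WD libraries (tolerance 0.01). For Junb this held in 0 of 8 and 0 of 9, and for Jund in 0 of 8 and 1 of 9. Egr1, for which no overlapping gene was found, had 1 of 8 and 0 of 9. Whole counts do not show that such reads are absent.

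Library totals were 9096110 to 12215784 counts under HFD and 15494731 to 20200618 under WD. Nus1, the gene of NgBR, was at 82.4 to 96.0 CPM in HFD WT livers and at 29.3 to 37.9 CPM in HFD N-LKO livers, and at 88.1 to 98.8 CPM in WD WT livers, 41.6 to 51.1 CPM in WD N-LKO livers and 28.9 to 43.9 CPM in tumors, so that every N-LKO library lay below every WT library of its diet. Summed over 6 hepatocyte markers (Alb, Apoa1, Ttr, Cyp2e1, Cps1 and Serpina1c), all of which were detected in every library, the level ran from 33955 to 85298 CPM. Tumors held 517 to 11050 CPM of the 4 tumor markers Afp, Gpc3, H19 and Fabp5, against 10.6 to 15.1 CPM in WD N-LKO livers. WD WT liver replicate 2 stood apart from its group, with the lowest scaling factor of the WD libraries (0.806). Results of the members and gene lists that rest on it are given with and without it. Shares over all genes, and calls of cell type markers other than Spp1, are given with it only. From WT liver to tumor, 2653 genes passed with it and 569 without it.

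Per kilobase of exon, Jund was the highest of the 10 genes in all 5 groups and Fosb was the lowest, with Fos next to it. In HFD WT liver, Jund averaged 16.4 ± 2.41 CPM per kb (SD, n = 4). Junb (6.13 ± 1.61), Ier2 (5.48 ± 0.849), Jun (4.67 ± 1.32) and Egr1 (4.01 ± 1.68) followed on the same scale, and each lay within the spread of its neighbour. Klf6 (2.66 ± 0.937) and Myc (2.10 ± 1.34 CPM per kb) overlapped as well, and below them came Atf3 (0.598 ± 0.407), Fos (0.409 ± 0.240) and Fosb (0.0742 ± 0.0618 CPM per kb). In WD WT liver the order opened with Jund at 37.3 ± 2.15 CPM per kb (n = 3) and Jun at 17.7 ± 2.15, which did not overlap, and closed with Fos at 1.31 ± 0.409 and Fosb at 0.282 ± 0.136 CPM per kb. HFD and WD libraries are in separate tables, so diet and table cannot be told apart and levels were not tested across diets. Fos and Fosb rested on few reads, 5 to 31 and 1 to 17 counts per HFD library and 30 to 77 and 5 to 45 per WD library.

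Under HFD, 1 of the 10 genes passed the test between N-LKO and WT liver. Klf6, a zinc finger transcription factor, rose 1.92-fold in N-LKO liver. Klf6, Atf3, Jund and Jun, 4 of the 9 genes tested, had an unadjusted p under 0.05, each with a higher mean in N-LKO liver. Of these 9 genes, 8 had a positive log2 fold change, with a median of 0.63, whereas the median over all 13460 genes tested was -0.01 and 49.1% of them were positive. Some members varied together between libraries within groups (Pearson r to the mean of the other members up to 0.701, for Fos), so these 8 are not separate observations. Of all genes tested, 4.84% passed at an adjusted p under 0.05 and 22.7% had an unadjusted p under 0.05, so that 1 and 4 of 9 stand beside these shares. Fosb had too few counts to be tested under HFD.

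**Figure D1:**
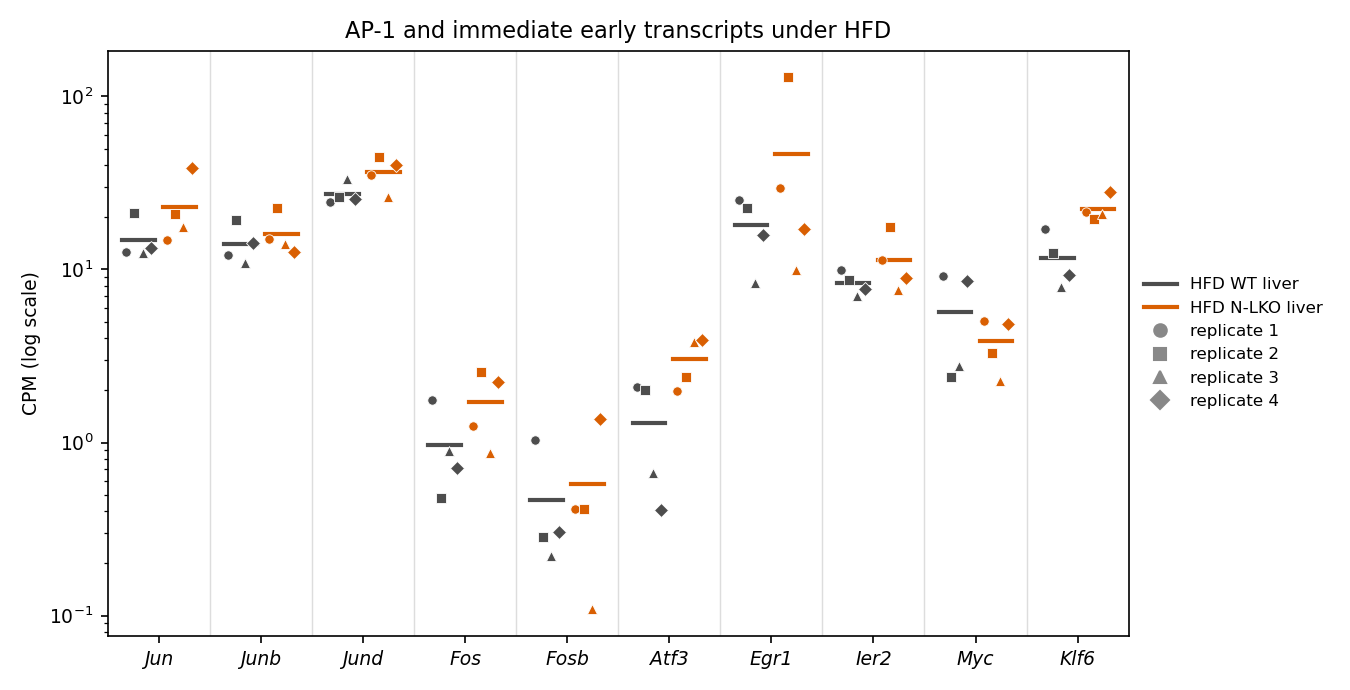
CPM (log scale) of the 10 genes in each HFD library; points are libraries, shaped by replicate number, and bars are group means. Klf6 is the only gene whose 4 N-LKO livers (19.6 to 27.9 CPM) all lie above the 4 WT livers (7.88 to 17.2 CPM), and Egr1 reaches 129 CPM in 1 N-LKO liver.

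Klf6 was at 17.2, 12.4, 7.88 and 9.25 CPM in WT livers 1 to 4 and at 21.4, 19.6, 20.8 and 27.9 CPM in N-LKO livers 1 to 4. Every N-LKO liver was above every WT liver, and the N-LKO livers were close to each other (22.4 ± 3.71 CPM, against 11.7 ± 4.12 CPM in WT). The log2 fold change was 0.94 (SE 0.21, edgeR adjusted p = 0.0288). Over all genes tested, 7.38% were higher in N-LKO without overlap and 7.40% were lower without overlap. The call was lost when WT replicate 2 (adjusted p = 0.0748), WT replicate 4 (0.0827), N-LKO replicate 1 (0.0662), N-LKO replicate 3 (0.0564) or N-LKO replicate 4 (0.0720) was left out, although the log2 fold change stayed between 0.80 and 1.18 in all 8 such fits.

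The JUN genes did not pass. Jun, the main activating partner of FOS, was at 12.6, 21.2, 12.4 and 13.4 CPM in WT livers and at 14.9, 21.0, 17.5 and 38.8 CPM in N-LKO livers. The groups overlapped, N-LKO replicate 4 was the highest library, and WT replicate 2 was far above the other WT livers. The log2 fold change of Jun was 0.63 (SE 0.28, unadjusted p = 0.0455, adjusted p = 0.209). Jund, a JUN protein that resting cells also make, was at 24.7, 26.1, 33.4 and 25.4 CPM in WT and at 35.1, 44.8, 26.3 and 40.3 CPM in N-LKO livers. In 3 of 4 N-LKO livers Jund was above all WT livers, and the log2 fold change was 0.42 (SE 0.16, adjusted p = 0.130). Junb, which can oppose c-JUN at some promoters, ranged from 10.9 to 19.3 CPM in WT and from 12.7 to 22.6 CPM in N-LKO (log2 fold change 0.19, SE 0.21, adjusted p = 0.636).

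Atf3, an early gene of the stress response, was at 2.08, 2.00, 0.666 and 0.407 CPM in WT livers and at 1.98, 2.39, 3.80 and 3.91 CPM in N-LKO livers. The highest 3 N-LKO livers were above all WT livers, and N-LKO replicate 1 lay just below the upper pair of WT livers. The log2 fold change of Atf3 was 1.20 (SE 0.44), with an unadjusted p of 0.0179 and an adjusted p of 0.126. Fos, the partner of JUN proteins, was at 1.77, 0.477, 0.888 and 0.712 CPM in WT and at 1.24, 2.55, 0.869 and 2.24 CPM in N-LKO livers, and it did not pass (log2 fold change 0.87, SE 0.44, adjusted p = 0.269). Fosb was between 0.222 and 1.04 CPM in WT and between 0.109 and 1.36 CPM in N-LKO.

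Egr1, a zinc finger factor induced by growth signals, was at 25.1, 22.7, 8.32 and 15.8 CPM in WT livers and at 29.5, 129, 9.88 and 17.2 CPM in N-LKO livers. N-LKO replicate 2 alone carried the difference in means, since the other 3 N-LKO livers lay in or near the WT range. With it, Egr1 had the largest log2 fold change of the 9 genes tested, 1.37 (SE 0.66, adjusted p = 0.239), and without it the log2 fold change was 0.08 (adjusted p = 0.921). Ier2, a small nuclear protein made early after stimulation, ran from 6.99 to 9.98 CPM in WT and from 7.60 to 17.5 CPM in N-LKO, where replicate 2 was again the highest (log2 fold change 0.45, SE 0.24, adjusted p = 0.277). Myc, which pairs with MAX and drives growth genes, was the only one of the 9 with a negative log2 fold change. Its WT livers were at 9.15, 2.39, 2.77 and 8.54 CPM and fell into a high and a low pair, and its N-LKO livers, at 5.04, 3.29, 2.28 and 4.87 CPM, lay mostly between them (log2 fold change -0.54, SE 0.42, adjusted p = 0.476).

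Under WD, none of the 10 genes passed between N-LKO and WT liver, and 0 of 17829 genes did so with edgeR. The share past an adjusted p of 0.05 was thus 0%, with 12.4% of genes at an unadjusted p under 0.05. Nus1, the deleted gene, did not pass with edgeR either (log2 fold change -1.02, SE 0.16, adjusted p = 0.151), although its groups did not overlap. A gene that did not pass here is therefore not shown to be unchanged. The DESeq2 Wald test called 99 genes and limma-voom called 0, and neither called any of the 10. Of the 10 log2 fold changes, 5 were positive and 5 were negative (median -0.10, against 0.01 for all genes tested), and 1 had an unadjusted p under 0.05, that of Myc.

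**Figure D2:**
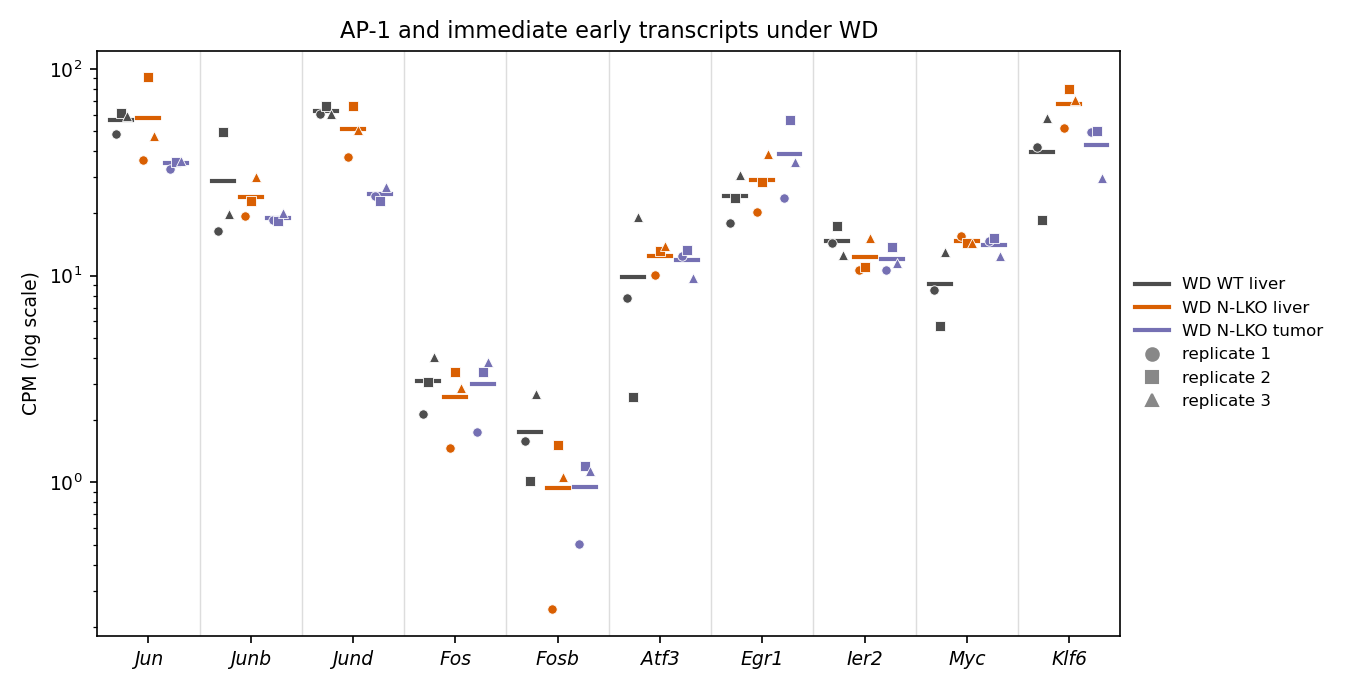
CPM (log scale) of the 10 genes in each WD library; points are libraries, shaped by replicate number, and bars are group means. The 3 tumors hold Jund at 23.0 to 26.8 CPM, below all 6 livers, and WT liver replicate 2 is the lowest WT library for Klf6 (18.6 CPM), Atf3 (2.58 CPM) and Myc (5.69 CPM) and the highest for Junb (49.3 CPM).

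Myc was at 8.50, 5.69 and 13.0 CPM in WD WT livers, at 15.6, 14.4 and 14.3 CPM in N-LKO livers and at 14.7, 15.2 and 12.4 CPM in tumors. All 3 N-LKO livers were above all WT livers, and the N-LKO livers were tightly grouped (14.8 ± 0.720 CPM, n = 3). Its log2 fold change from WT to N-LKO liver was 0.70 (SE 0.25), with an unadjusted p of 0.0185 and an adjusted p of 0.361, and it was 0.45 without WT replicate 2 (adjusted p = 0.888). Over all genes, 14.3% were higher and 13.6% were lower in WD N-LKO liver without overlap, and Myc was the only one of the 10 to do either.

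Klf6, the gene called under HFD, was at 41.9, 18.6 and 57.8 CPM in WD WT livers and at 51.9, 79.7 and 70.4 CPM in WD N-LKO livers. The groups overlapped, since WT replicate 3 was above N-LKO replicate 1. The log2 fold change was 0.77 (SE 0.36, unadjusted p = 0.0569, adjusted p = 0.416) and 0.43 without WT replicate 2 (adjusted p = 0.910). Atf3 was at 7.75, 2.58 and 19.2 CPM in WT and at 10.1, 13.1 and 13.9 CPM in N-LKO livers, so that the WT livers spanned the N-LKO livers on both sides. Its log2 fold change was 0.32 (SE 0.51, adjusted p = 0.804) and turned to -0.13 without WT replicate 2. Junb did the opposite, with 16.5, 49.3 and 19.8 CPM in WT and 19.5, 22.9 and 29.9 CPM in N-LKO livers, and its log2 fold change of -0.25 (SE 0.35, adjusted p = 0.781) turned to 0.40 without WT replicate 2.

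Jun was at 48.5, 61.1 and 59.4 CPM in WD WT livers and at 36.2, 90.9 and 47.2 CPM in WD N-LKO livers, with a log2 fold change of 0.05 (SE 0.28, adjusted p = 0.955). N-LKO replicate 2 was the highest of these livers and the other N-LKO livers were the lowest. Jund was at 60.2, 66.4 and 60.1 CPM in WT and at 37.3, 66.0 and 50.5 CPM in N-LKO livers (log2 fold change -0.28, SE 0.19, adjusted p = 0.531). Fos, Fosb, Egr1 and Ier2 also overlapped between the genotypes, with log2 fold changes from -0.90 (Fosb, SE 0.60) to 0.26 (Egr1, SE 0.33) and adjusted p-values of 0.528 to 0.799. WD N-LKO replicate 1 held the lowest value of its group for 9 of the 10 genes, Myc being the exception.

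In tumors, Jund was the only member that passed the test. It was at 24.3, 23.0 and 26.8 CPM in the 3 tumors, below each of the 3 WD N-LKO livers and each of the 3 WD WT livers, and the tumors were close to each other (24.7 ± 1.92 CPM). Jund fell 2.07-fold from N-LKO liver to tumor (log2 fold change -1.05, SE 0.19, edgeR adjusted p = 0.0462) and 2.51-fold from WT liver to tumor (log2 fold change -1.33, SE 0.19, adjusted p = 0.00709). Both comparisons use the same 3 tumors. The fall from WT liver passed the threshold in all 19 alternatives, with log2 fold changes of -1.40 to -1.15, the smallest after an offset for length and GC content. The fall from N-LKO liver kept its direction in all 19 (-1.24 to -0.83) but passed in 7. It was lost in 8 of 9 fits that left out a library, that is all but the one without tumor replicate 1 (adjusted p = 0.0177), with adjusted p-values of 0.0943, 0.0617 and 0.0862 without WT replicates 1, 2 and 3, of 0.0624, 0.213 and 0.195 without N-LKO replicates 1, 2 and 3, and of 0.118 and 0.0929 without tumor replicates 2 and 3.

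Of all 17829 genes, 0.499% passed between tumor and N-LKO liver, 18.3% had an unadjusted p under 0.05, 11.5% were higher in tumor without overlap and 11.6% were lower without overlap. Among the 10 members, 1 passed, 2 had an unadjusted p under 0.05, 0 were higher without overlap and 3 were lower without overlap, namely Jun, Jund and Klf6. Between tumor and WT liver, 14.9% of all genes passed, 32.5% had an unadjusted p under 0.05, 17.7% were higher without overlap and 16.4% were lower without overlap. Here 1 of 10 members passed, 3 had an unadjusted p under 0.05, 0 were higher without overlap and 2 were lower without overlap, namely Jun and Jund. The median log2 fold change of the members was -0.06 against N-LKO liver and -0.17 against WT liver, beside 0.02 and 0.04 for all genes.

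Jun was at 32.9, 35.6 and 36.0 CPM in tumors, below every liver of both genotypes. The lowest liver, N-LKO replicate 1 at 36.2 CPM, was nearly at the level of the highest tumor. The log2 fold change of Jun was -0.74 against N-LKO liver (SE 0.28, adjusted p = 0.208) and -0.69 against WT liver (SE 0.28, adjusted p = 0.120). Against WT liver it passed with the 2 groups fitted alone (adjusted p = 0.0453) and without N-LKO replicate 2 (adjusted p = 0.0282). Klf6 was at 49.2, 50.0 and 29.6 CPM in tumors, which lay below the 3 N-LKO livers and within the range of the WT livers. Its log2 fold change was -0.65 against N-LKO liver (SE 0.36, adjusted p = 0.364) and 0.12 against WT liver (SE 0.36, adjusted p = 0.846).

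Myc did not differ detectably between tumor and N-LKO liver (log2 fold change -0.06, SE 0.25, approximate 95% interval -0.55 to 0.42). Against WT liver it was 0.64 higher on the log2 scale (SE 0.25, unadjusted p = 0.0289, adjusted p = 0.109) with overlapping groups, and it passed without WT replicate 3 (0.99, adjusted p = 0.0332) but was 0.39 (adjusted p = 0.274) without WT replicate 2. Egr1 was at 23.8, 56.8 and 35.6 CPM in tumors and overlapped with both liver groups, with log2 fold changes of 0.42 (SE 0.33) against N-LKO and 0.68 (SE 0.33, adjusted p = 0.184) against WT liver. Junb was uniform in tumors (18.9 ± 0.905 CPM) and variable in WT livers (28.5 ± 18.1 CPM), with a log2 fold change of -0.59 against WT liver (SE 0.35, adjusted p = 0.275) that turned to 0.06 without WT replicate 2. Fos, Fosb, Atf3 and Ier2 overlapped with both liver groups, and their adjusted p-values ran from 0.304 to 0.993.

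**Figure D3:**
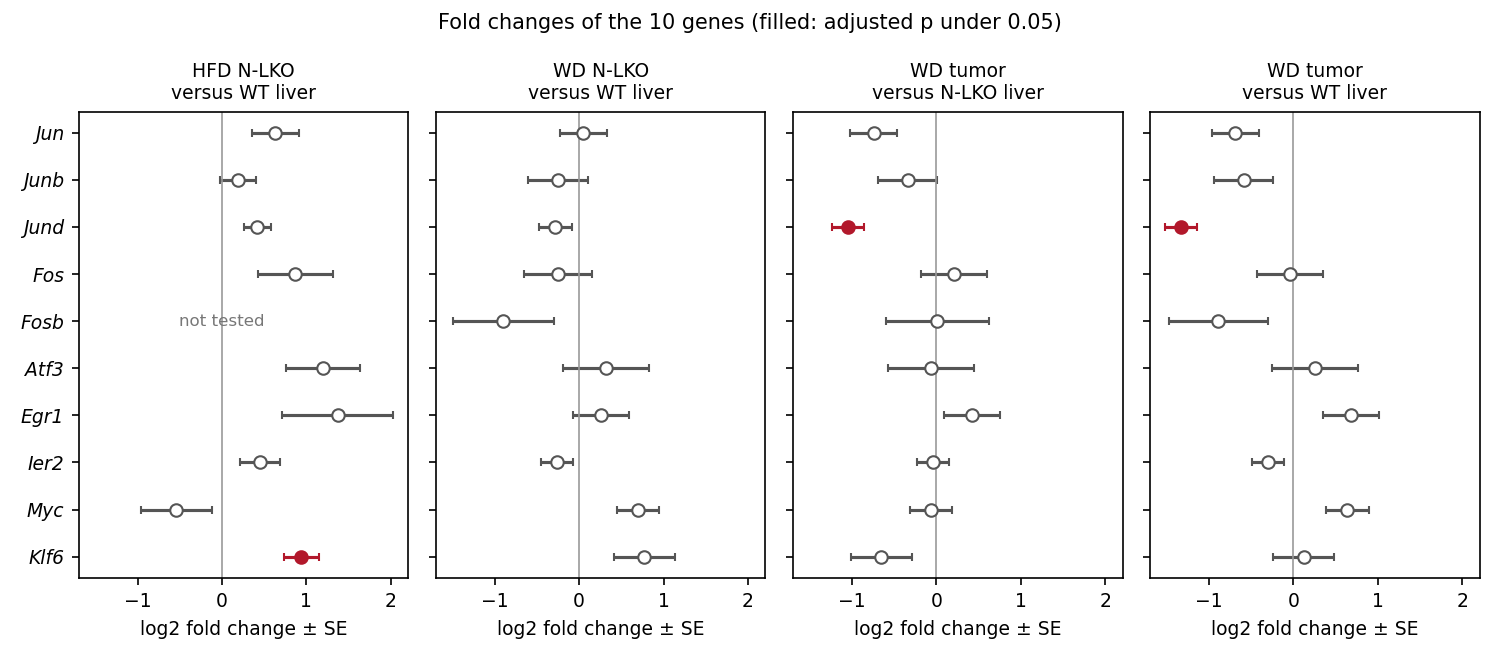
Log2 fold change of the 10 genes in 4 comparisons; points are edgeR estimates, bars are approximate standard errors and filled points passed an adjusted p of 0.05. Klf6 passes under HFD (0.94) and Jund passes in tumor against N-LKO liver (-1.05) and WT liver (-1.33). The 3 WD comparisons share libraries.

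An interaction over the 14 livers, the WD effect of the knockout minus its HFD effect, asked whether the diets differed in it. None of the 10 genes passed, while 1.62% of the 15850 genes tested did, and 20.0% of all genes had an unadjusted p under 0.05 against 2 of the 10. DESeq2 likewise called 0 of the 10. Myc gave 1.26 (SE 0.57, unadjusted p = 0.0421, adjusted p = 0.230), with a log2 fold change of -0.54 under HFD and 0.70 under WD. Jund gave -0.68 (SE 0.26, unadjusted p = 0.0203, adjusted p = 0.166), with 0.42 under HFD and -0.28 under WD. Klf6 gave -0.16 (SE 0.44, approximate 95% interval -1.01 to 0.70, adjusted p = 0.878). Of the 10 interaction values, 9 were negative, all but that of Myc, while 50.5% of all genes tested were positive. Some members vary together, so these 9 are not separate observations.

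The spread of these genes between libraries of a group was large under HFD. The biological coefficient of variation (BCV, the relative spread beyond counting error) was 0.608 for Egr1, and 99.7% of the genes tested had a lower one. It was 0.397 for Myc, 0.366 for Atf3 and 0.348 for Fos, above 98.3%, 97.6% and 97.1% of genes, whereas Jund was at 0.158, above 63.7% of genes. Under WD, Fosb (0.478) and Atf3 (0.439) had the highest BCV of the members, above 94.9% and 93.2% of genes, and Jund and Ier2, both at 0.181, were above 33.5% and 33.8% of genes. The common BCV of all genes was 0.149 under HFD and 0.243 under WD. The shares above are over genes of all levels. The trended BCV, fitted to genes of a similar level, was under HFD 0.246 for Fos, 0.233 for Atf3, 0.185 for Myc and 0.129 for both Egr1 and Jund. Under WD it was 0.343 for Fosb, 0.222 for Atf3, 0.195 for Jund and 0.216 for Ier2.

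Several libraries were high or low for many of the 10 genes at once. Among HFD WT livers, replicate 1 held the highest value for 7 genes and replicate 3 the lowest for 6. Among HFD N-LKO livers, replicate 2 was the highest for 5 genes, among them Fos, Egr1 and Ier2, and replicate 3 was the lowest for 6. Among tumors, replicate 2 was the highest for 6. In WD WT livers, replicate 2 held the highest value of Jun, Junb, Jund and Ier2 and the lowest value of Fosb, Atf3, Myc and Klf6.

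**Figure D4:**
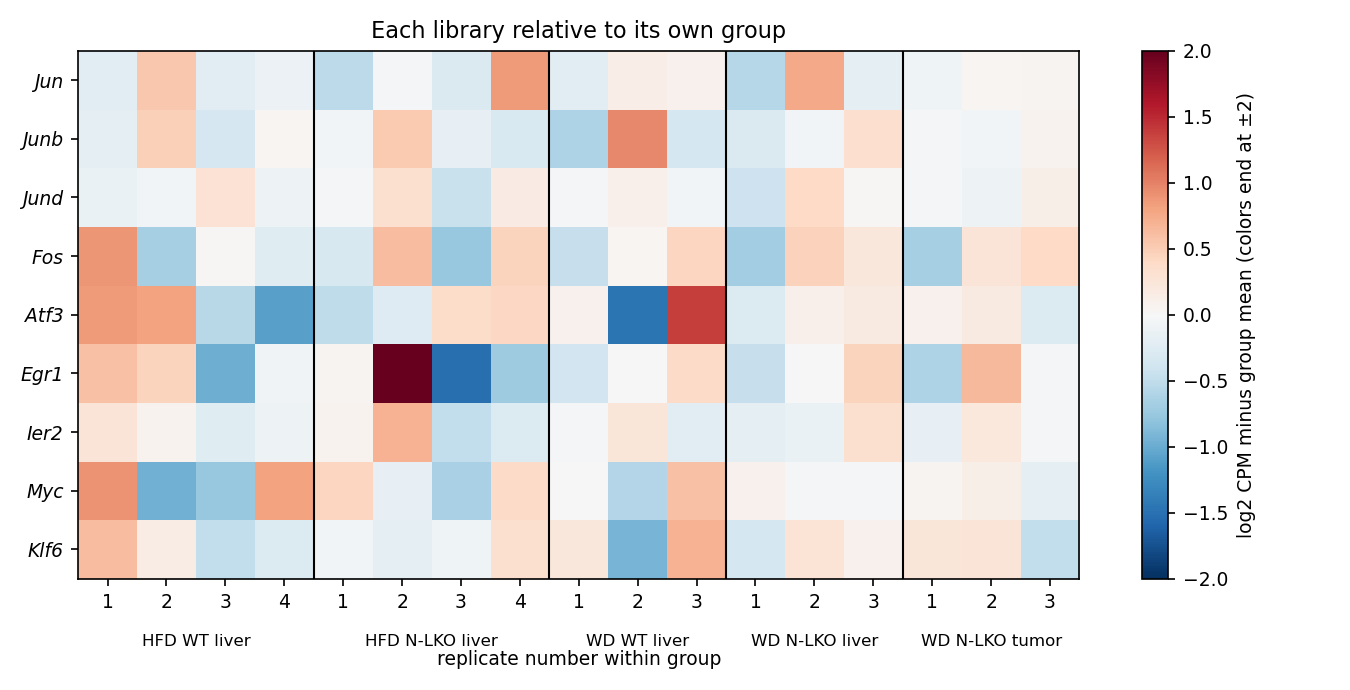
Log2 CPM of 9 members minus the mean of the library's own group; columns are libraries, ordered by group and replicate number, and colors end at ±2. HFD N-LKO replicate 2 is red for Egr1, Fos, Ier2 and Junb, and WD WT replicate 2 is red for Junb and blue for Atf3, Klf6 and Myc.

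After each gene was centred on its group means, Fos and Egr1 followed the mean of the other members most closely over the 17 libraries, with a Pearson r of 0.701 and 0.691, Ier2 reached 0.479, and Junb (0.0654), Myc (0.153) and Atf3 (0.174) followed it least. Fosb was left out, since it was not tested under HFD. Of 13407 other genes, the 5 most like the mean of the 9 members were Mafk, a small MAF protein (r = 0.862, Spearman rho 0.838), Fam53c (r = 0.839), Rragc (r = 0.812), Rapgef2 (r = 0.798) and Pidd1 (r = 0.796). These values describe 17 libraries that differ in depth and composition, and the genes were picked for their r, so no p is attached.

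Other genes of the pathway were followed in 8 lists, which were chosen with earlier results of these data known. Over all genes tested, 4.84% passed under HFD and 0% between WD N-LKO and WT liver. The share was 0.499% between tumor and N-LKO liver and 14.9% between tumor and WT liver. At an unadjusted p under 0.05 the shares were 22.7%, 12.4%, 18.3% and 32.5% in the same order. Among 19 other AP-1 and ATF subunits, 14 were tested under HFD and 18 under WD, and 0 passed between N-LKO and WT liver under either diet or between tumor and N-LKO liver. At an unadjusted p under 0.05 there were 3 under HFD (1 higher and 2 lower), 2 under WD (1 higher and 1 lower) and 0 between tumor and N-LKO liver. The median of this list was -0.01 under HFD and 0.04 under WD between N-LKO and WT liver, beside -0.01 and 0.01 for all genes. Under HFD the lowest unadjusted p-values in it were those of Atf6, a sensor of unfolded proteins in the endoplasmic reticulum (log2 fold change -0.30, SE 0.09, adjusted p = 0.0694), and of Maff (0.89, SE 0.33, adjusted p = 0.136).

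Of 49 other immediate early genes, 41 were tested under HFD and 1 passed, Btg2, an antiproliferative gene that p53 can induce. It rose from 7.34 ± 1.82 to 15.4 ± 2.64 CPM (n = 4 each, log2 fold change 1.07, SE 0.19, adjusted p = 0.0139). The list median was 0.12, and 5 of its genes were higher and 2 lower at an unadjusted p under 0.05. Under WD none of the 49 passed between N-LKO and WT liver, and the lowest unadjusted p-values were those of the kinase gene Pim3 (log2 fold change -1.05, SE 0.25, adjusted p = 0.353) and of Cebpb (-0.73, SE 0.19, adjusted p = 0.353). None passed between tumor and N-LKO liver, where Ier5 (1.18, SE 0.27, adjusted p = 0.0798) and Klf10 (0.75, SE 0.20, adjusted p = 0.105) came closest.

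From WT liver to tumor, 4 of the 49 rose and 7 fell, with a list median of -0.08, while 14.9% of all genes passed. Ier5 rose by 1.85 on the log2 scale (SE 0.28, adjusted p = 0.00782), Btg2 by 1.16 (SE 0.24, adjusted p = 0.0159), Klf10 by 0.94 and Btg1 by 0.59. The 4 largest falls were those of the kinase gene Plk3 (-2.14, SE 0.48, adjusted p = 0.0203), Gem (-2.09), Pim3 (-1.40) and the liver factor Cebpb (-1.22, SE 0.20, adjusted p = 0.00863). Without WT replicate 2, 3 of these 11 calls remained, those of Ier5, Pim3 and Cebpb.

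Of the 23 MAP kinases and SRF factors that act upstream, all were tested. Under HFD only Braf passed, lower in N-LKO liver (-0.41, SE 0.09, adjusted p = 0.0299), and from WT liver to tumor only Map2k7, a kinase of the JNK branch, did, also lower (-0.62, SE 0.14, adjusted p = 0.0189), but not without WT replicate 2. None passed in the other comparisons between groups, and the list medians were -0.12 under HFD and -0.12 under WD between N-LKO and WT liver.

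Of 20 listed genes that AP-1 is known to activate, 12 were tested under HFD, where 2 rose, 1 fell, and 9 had an unadjusted p under 0.05, of which 8 were higher. The list median was 0.75. Of all genes tested, 4.84% passed and 22.7% had an unadjusted p under 0.05, and the list was chosen with earlier results known. Spp1, the secreted matrix protein osteopontin, rose from 21.2 ± 9.11 to 62.2 ± 18.7 CPM (log2 fold change 1.55, SE 0.27, adjusted p = 0.0139). Ccnd1, the cyclin that takes cells into the cycle, rose from 33.9 ± 8.46 to 61.6 ± 8.99 CPM (0.86, SE 0.16, adjusted p = 0.0170), and Vegfa, the endothelial growth factor, fell from 92.3 ± 6.39 to 67.7 ± 3.01 CPM (-0.45, SE 0.08, adjusted p = 0.0139).

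Under WD, 18 of the 20 AP-1 targets were tested between N-LKO and WT liver and 0 passed, with a list median of 0.54. At an unadjusted p under 0.05, where 12.4% of all genes lay, 6 were higher and 0 lower. The lowest unadjusted p-values were those of the collagenase gene Mmp13 (log2 fold change 1.71, SE 0.60, adjusted p = 0.360) and of S100a6 (0.99, SE 0.38, adjusted p = 0.376). From WT liver to tumor 5 rose and 1 fell, with a list median of 0.91, while 14.9% of all genes passed. Mmp13 (3.09, SE 0.61, adjusted p = 0.0140), Spp1 (2.88, SE 0.63, adjusted p = 0.0187), the quinone reductase gene Nqo1 (2.00, SE 0.38, adjusted p = 0.0133) and the growth factor gene Hbegf (1.55, SE 0.38, adjusted p = 0.0267) had the largest rises, and the heme oxygenase gene Hmox1 fell (-0.92, SE 0.26, adjusted p = 0.0401). Without WT replicate 2 the calls of Mmp13, Spp1 and Nqo1 remained, the list median against WT liver was 0.53, and that between N-LKO and WT liver was 0.30. Between tumor and N-LKO liver none passed, with a list median of 0.07, and without WT replicate 2 Nqo1 did. Spp1 is also one of the cholangiocyte markers.

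**Figure D5:**
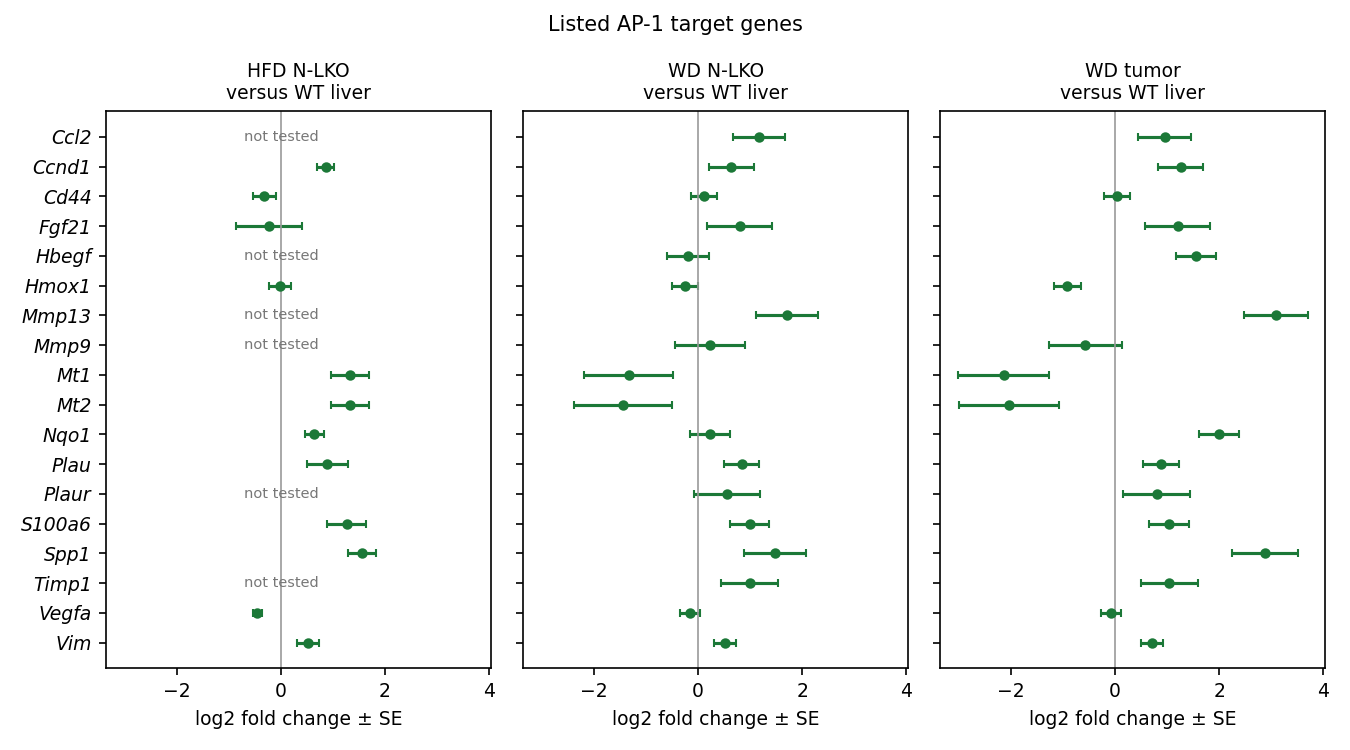
Log2 fold change of listed AP-1 target genes in 3 comparisons; points are edgeR estimates and bars are approximate standard errors. Under HFD most tested genes lie to the right of 0, led by Spp1 (1.55), and against WT liver the tumors reach 3.09 for Mmp13. Mt1 (-1.33, SE 0.85) and Mt2 (-1.44, SE 0.94) have the lowest values between WD N-LKO and WT liver. Both are at 1.33 (SE 0.36) under HFD, and neither passed in these 2 comparisons. In hepatocytes measured cell by cell under WD, the study reports both as higher in N-LKO mice.

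Around Myc, 0 of 8 tested partner genes of the MAX network passed under HFD and 0 of 9 between N-LKO and WT liver under WD. From WT liver to tumor 1 of 9 did, Mxi1, which competes with MYC for MAX and fell by 0.92 on the log2 scale (SE 0.17, adjusted p = 0.0120). Of 15 MYC target genes, 1 rose under HFD, the cell cycle kinase gene Cdk4 (0.50, SE 0.10, adjusted p = 0.0183), 0 passed under WD between N-LKO and WT liver, and between WT liver and tumor 1 rose, Nop58 (0.76, SE 0.19, adjusted p = 0.0302), and 1 fell, Polr1b (-0.59, SE 0.13, adjusted p = 0.0205). Both serve ribosome production. Without WT replicate 2 the call of Mxi1 remained and those of Nop58 and Polr1b were lost.

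Around Klf6, 12 of 16 other KLF genes were tested under HFD. Klf12 fell in N-LKO liver (log2 fold change -0.62, SE 0.09, adjusted p = 0.00749) and no other member passed. None of 13 passed under WD between N-LKO and WT liver, where Klf15 (-0.57, SE 0.22, adjusted p = 0.375) and Klf9 (-0.49, SE 0.19, adjusted p = 0.380) had the lowest unadjusted p-values. From WT liver to tumor Klf10 rose (0.94, SE 0.20, adjusted p = 0.0181), and Klf12 (-0.94), Klf15 (-0.85) and Klf9 (-0.79) fell, with adjusted p-values of 0.0293, 0.0310 and 0.0270. None of these 4 calls remained without WT replicate 2. Klf10 is also in the list of immediate early genes, as are Klf2 and Klf4.

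The heat shock genes, which tissue handling can also induce, held 1 call under HFD among 9 tested, the mitochondrial chaperonin gene Hspe1 (0.45, SE 0.09, adjusted p = 0.0203), with a list median of -0.00. Under WD none of 10 passed between N-LKO and WT liver (list median -0.27). From WT liver to tumor 3 of 10 fell, Hspb1 (-1.20, SE 0.24, adjusted p = 0.0153), Dnajb1 (-0.88, SE 0.21, adjusted p = 0.0230) and Dnaja1 (-0.64, SE 0.15, adjusted p = 0.0244), and 0 did so without WT replicate 2. In the interaction, Hspe1 passed as the only gene of the 8 lists, with -0.70 (SE 0.14, adjusted p = 0.0287), and it did not pass without WD WT replicate 2.

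Markers of other liver cells moved with some of these groups. Under HFD, the 7 Kupffer cell and macrophage markers summed to 119.2 to 162.3 CPM in WT and 59.5 to 129.4 CPM in N-LKO livers, with 3 of 7 called lower. The 5 cholangiocyte markers summed to 20.4 to 38.4 CPM in WT and 54.4 to 99.3 CPM in N-LKO livers, most of it Spp1, which the list of AP-1 targets also holds. The other 4 summed to 4.68 to 7.42 CPM in WT and 6.31 to 10.5 CPM in N-LKO livers, and of the 2 markers tested Spp1 was called and Sox9 was not (log2 fold change 0.36, SE 0.20, adjusted p = 0.301). The 5 endothelial markers summed to 91.7 to 111.1 and 68.7 to 96.5 CPM, with 1 called lower. The 6 stellate cell markers summed to 132.1 to 222.4 CPM in WT and 181.4 to 257.6 CPM in N-LKO livers, with 0 called. The part of these markers in the Klf6 difference under HFD was not tested.

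Under WD, the macrophage markers summed to 492.4 to 732.0 CPM in WT livers, 458.2 to 534.8 CPM in N-LKO livers and 178.5 to 456.1 CPM in tumors, and 2 of 7 were called lower in tumor than in WT liver. Cholangiocyte markers summed to 17.2 to 69.5, 114.5 to 150.8 and 194.7 to 522.5 CPM in the same order, again mostly Spp1, and without it to 6.91 to 8.52, 13.3 to 16.8 and 27.3 to 62.8 CPM. From N-LKO liver to tumor the median log2 fold change of the 5 was -0.65, since Krt19, Krt7 and Epcam had negative values that did not pass and Sox9 rose (1.90, SE 0.31, adjusted p = 0.0355). From WT liver to tumor, 2 cholangiocyte markers were called higher (Sox9 and Spp1), 1 hepatocyte marker lower (Ttr), 1 stellate cell marker lower (Reln), and 1 endothelial marker higher (Pecam1) and 1 lower (Clec4g). Hepatocyte markers summed to 51592 to 64512, 36766 to 44720 and 33955 to 59785 CPM in the order of the groups. WT replicate 2 was the lowest WD WT library in the stellate cell (399.9 CPM) and macrophage (492.4 CPM) sums. The part of these markers in the lower Jund of tumors was not tested. Neutrophil markers summed to 3.25 to 11.2 CPM and T and B cell markers to 1.42 to 7.23 CPM over all 17 libraries, no listed marker was at 0 in every library of a group, and Ly6g was not analysed here.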

How the data were processed

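Total RNA was freed of ribosomal RNA, made into libraries with an Illumina small RNA kit and sequenced as single-end reads, per the methods of the study. The authors deposited estimated counts for each gene from Partek, in which a read can be divided between features (69.7% of HFD and 66.6% of WD values were whole). They were neither pooled nor scaled. Tool versions and the strand setting were not given in the sources used here. The labels name STAR and mm9, whereas the methods name TopHat2, and 97.2% and 96.8% of listed starts equal those of GENCODE M21 on GRCm38, so positions are given on that build.

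The estimated counts were rounded, and edgeR 4.0.16 was run in R 4.3.3 (TMM, filterByExpr, quasi-likelihood F test), with p-values adjusted by Benjamini-Hochberg over all genes tested and a threshold of 0.05. The 8 HFD libraries were fitted alone and the 9 WD libraries together, and the interaction used the 14 livers. CPM was computed on TMM-scaled library sizes. Standard errors and intervals are approximate. p-values set a difference between groups against the spread between libraries, which for tumors may not be a spread between mice. The alternatives were DESeq2 1.42.0 and upper-quartile scaling, no filter or one at 1 CPM, limma 3.58.1 voom, the Wald test of DESeq2, robust empirical Bayes, a replicate block, a length and GC offset, the 2 groups alone and leaving out each library. The fits were also run on simulated data in which every gene had the common BCV, with changes under WD placed in the tumor group only. These data do not cover genes as variable as Egr1, or changes between WD N-LKO and WT liver. From each list the text names called genes, up to 4 per direction, or else the 2 with the lowest p (not all of these are printed), the 5 genes most like the member mean, and Nus1. Mt1 and Mt2 were named after their values were seen. Cyr61, Ctgf, Mkl1 and Mkl2 were matched under newer symbols. Members and lists were chosen with earlier results of these data known. Promoters are from RefSeq. The value of 1 listed gene is not reported here.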

Additional observations from a re-analysis of the deposited data

Results flagged for a closer look

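In groups of 4 livers, a library was marked where its gap to the nearest other library took most of the range of the group (Dixon's test at the 95% level for 4 samples). Over 20 groups of values tested, 4 were marked, each at the highest library of its group. Chance marks about 1 only if values are normal and independent. CPM values can be skewed and some members vary together, so the 4 cannot be read as more than chance gives. Egr1 in HFD N-LKO liver replicate 2 was at 129 CPM, with a gap of 0.835 of the range, Jun in HFD WT liver replicate 2 was at 21.2 CPM (0.887), Jund in HFD WT liver replicate 3 was at 33.4 CPM (0.838) and Fosb in HFD WT liver replicate 1 was at 1.04 CPM (0.898). Groups of 3 libraries were not tested.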

How the results depend on the processing

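Over the 10 genes, 901 of 952 values under an alternative kept their direction and side of the threshold. Under HFD the number of genes called was 652, 999 with the DESeq2 Wald test, 297 with the length and GC offset and 179 to 597 when leaving out 1 library, where the number of members called was 0 to 1. Between WD N-LKO and WT liver it was 0, 99 with DESeq2, 6 with the 2 groups alone and 0 to 1 when leaving out 1 library. Between tumor and N-LKO liver it was 89, 58 with the filter at 1 CPM, 1021 with DESeq2, 18 with limma-voom, 38 with the replicate block, 29 with the 2 groups alone and 3 to 2193 when leaving out 1 library (most without tumor replicate 1). Members called there were 1, with 0 under the filter at 1 CPM, limma-voom, the block and the 2 groups alone, and 0 to 1 when leaving out 1 library. Between tumor and WT liver 2653 genes were called, and 705 with the 2 groups alone (2 members instead of 1). Leaving out 1 library gave 569 to 3819 genes and 1 to 2 members, with the fewest genes, 569, without WT replicate 2. For the interaction it was 257, 923 with DESeq2, 50 with the length and GC offset, 0 with the replicate block and 22 to 330 when leaving out 1 library.

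Libraries with the same replicate number did not deviate together. Correlations of deviations ran from -0.0759 to 0.107 over 4 HFD pairs and from -0.124 to 0.101 over 9 WD pairs, so the replicate numbers are not read as pairs. Library names carry other numbers. These give the same pair as the replicate number for WD N-LKO liver and tumor replicate 1 (correlation 0.101) and for WD WT and N-LKO liver replicate 2 (0.0403). Other pairs by name were neither checked nor used in the replicate block. Whether livers and tumors are paired in another way thus cannot be told. Under the replicate block Jund in tumor against N-LKO liver had an adjusted p of 0.0908, Klf6 under HFD kept its call (0.0441), and Jun between WD N-LKO and WT liver turned to -0.03.

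Other log2 fold changes turned sign, none past the threshold. Left out in turn, libraries gave ranges of -0.03 to 0.38 for Junb under HFD, and between WD N-LKO and WT liver of -0.43 to 0.29 for Jun, -0.52 to 0.40 for Junb, -0.51 to 0.03 for Fos and -0.13 to 1.26 for Atf3. Between tumor and N-LKO liver they were -0.07 to 0.48 for Fos, -0.44 to 0.55 for Fosb, -0.19 to 0.06 for Atf3, -0.16 to 0.13 for Ier2 and -0.13 to 0.02 for Myc, and between tumor and WT liver -0.87 to 0.06 for Junb, -0.25 to 0.22 for Fos, -0.19 to 1.19 for Atf3 and -0.22 to 0.50 for Klf6. In the interaction they were -0.68 to 0.22 for Junb, -1.33 to 0.09 for Atf3, -1.42 to 0.20 for Egr1 and -0.51 to 0.24 for Klf6. Among other settings, limma-voom turned Jun between WD N-LKO and WT liver (-0.06), the offset for length and GC turned Fosb between tumor and N-LKO liver (-0.05) and Klf6 between tumor and WT liver (-0.05), and upper-quartile scaling turned Fos between tumor and WT liver (0.02). The cause was not tested. Fos and Fosb rest on few reads, 5 to 31 and 1 to 17 counts per HFD library.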
